A study of Mus musculus with 16 samples.

Results

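The comparison set macrophages exposed for 8 h to heme bound to albumin at 50 µM against macrophages exposed for 8 h to lipopolysaccharide (LPS) at 10 ng/mL. It used 8 of the 16 arrays of the study, the 4 titled for heme-albumin at 50 µM and the 4 titled for LPS, and they were chosen by title alone. The remaining 8 arrays were 4 of untreated cells at 0 h, called the control here, and 4 of cells given heme-albumin at 200 µM for 8 h. The cells of every group were mouse macrophages derived from stem cells; strain, genotype and kind of stem cell are not given in the sources used here. Every array carried the sample RNA in the red dye (Cy5) and RNA of untreated cells in the green dye (Cy3), so each value is a log2 ratio of sample over untreated reference, and 0 means equal signal. Each group had 4 independent biological replicates, lettered a to d, per the study's design text. Both treated groups had the same incubation time, so the subtraction of their mean log2 ratios compares cultures of equal age. The untreated control was taken at 0 h, and no 8 h incubation without an agent, or with albumin alone, was among the samples. Differences are given throughout as LPS minus heme-albumin, so a positive value means a higher level after LPS. The series title asks about a role of heme in starting inflammation.

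LPS, a glycolipid of Gram-negative bacteria, is bound by CD14 and MD-2 and signals through TLR4. Signalling through MyD88 leads to NF-κB and AP-1 activity and to cytokine and chemokine transcription, while signalling through TRIF leads to IRF3, interferon beta and, through its receptor, the interferon-stimulated genes. Macrophages also take up heme from aged red cells and free heme from plasma. Heme oxygenase 1 (Hmox1) opens the heme ring, the released iron is stored in ferritin or exported by ferroportin (Slc40a1), and the transcription factors SPI-C, BACH1 and NRF2 adjust the genes of this pathway.

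The 4 heme-albumin arrays and 4 LPS arrays had between 52.0 and 59.1 percent of their 39429 probes well above background in the red channel, and no spot was saturated in the listed probes. After dim probes were set aside, 21458 probes and 12759 genes with a symbol were tested, and 11635 of these genes were above background on all 8 arrays. The log2 ratios of replicates correlated across genes with r between 0.589 and 0.768 among the heme-albumin arrays and between 0.926 and 0.981 among the LPS arrays (genes are not independent replicates). All 22 macrophage identity genes measured here, among them Csf1r, Spi1 and Adgre1, were above background on all 8 arrays. Few genes differed between heme-albumin at 50 µM (8 h) and the untreated control (0 h). Adjusted p was under 0.05 with at least a 2-fold change for 47 genes (0.368 percent of the genes tested), 37 higher and 10 lower. Agent and incubation time cannot be told apart in comparisons with this control. With normexp background correction these were 19, and the lower genes were 5 without control replicate c and 6 without control replicate b. The array positions on a slide follow the groups, so position and treatment cannot be told apart.

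The promoters of 5 genes that bracket the comparison are shown first, because the motifs they carry recur in the gene groups described afterwards. Each runs over the 250 bases before the annotated start, 5′ to 3′ on the gene's strand, from RefSeq on GRCm38.p6. Capitals mark kappaB, the NF-κB binding motif, in Cxcl10, Cxcl2 and Nfkbia; the interferon-stimulated response element (ISRE), searched as GAAANNGAA, in Cxcl10, Nfkbia and Ifit1; and, in Cdc20, the cell cycle element CHR, searched as TTTGAA, and the CCAAT box. Both strands were searched, and overlapping matches run together as 1 capitalised stretch.
Cxcl10, chr5:92348890-92349139, minus strand: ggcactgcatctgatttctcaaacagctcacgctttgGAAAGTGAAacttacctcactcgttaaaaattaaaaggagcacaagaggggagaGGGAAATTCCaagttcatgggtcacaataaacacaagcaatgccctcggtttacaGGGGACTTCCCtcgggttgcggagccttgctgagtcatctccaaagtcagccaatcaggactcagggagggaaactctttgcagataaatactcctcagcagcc
Cxcl2, chr5:90903649-90903898, plus strand: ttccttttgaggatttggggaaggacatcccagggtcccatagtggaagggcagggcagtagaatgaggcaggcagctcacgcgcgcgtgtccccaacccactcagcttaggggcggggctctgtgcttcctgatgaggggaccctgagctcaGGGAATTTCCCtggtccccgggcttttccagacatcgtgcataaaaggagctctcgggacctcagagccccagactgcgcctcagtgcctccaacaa
Nfkbia, chr12:55492648-55492897, minus strand: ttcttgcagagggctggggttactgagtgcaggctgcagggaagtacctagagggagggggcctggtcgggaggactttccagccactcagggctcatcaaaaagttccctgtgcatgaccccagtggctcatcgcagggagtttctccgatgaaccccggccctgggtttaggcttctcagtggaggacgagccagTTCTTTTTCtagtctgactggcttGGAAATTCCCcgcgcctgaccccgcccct
Ifit1, chr19:34640639-34640888, plus strand: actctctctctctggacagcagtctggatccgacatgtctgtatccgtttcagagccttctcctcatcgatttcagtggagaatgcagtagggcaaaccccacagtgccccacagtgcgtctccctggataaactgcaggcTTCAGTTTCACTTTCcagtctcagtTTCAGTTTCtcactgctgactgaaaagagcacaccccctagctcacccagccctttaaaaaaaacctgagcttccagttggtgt
Cdc20, chr4:118437344-118437593, minus strand: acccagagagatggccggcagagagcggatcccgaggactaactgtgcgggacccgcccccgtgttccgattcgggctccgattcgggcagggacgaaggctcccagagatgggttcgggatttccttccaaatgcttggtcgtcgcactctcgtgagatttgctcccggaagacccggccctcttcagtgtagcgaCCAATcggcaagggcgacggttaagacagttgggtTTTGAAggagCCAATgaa

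The kappaB motif was present in 8.92 percent of the 13000 promoters of the genes tested, and in 14.6 percent of the 362 promoters of genes at least 8-fold higher after LPS. The ISRE was present in 6.48 percent of tested promoters, in 18.2 percent of those at least 8-fold higher and in 2.65 percent of those at least 8-fold lower. CCAAT stood in 35.4 percent of tested promoters and in 42.9 percent of those at least 8-fold lower after LPS. By list, kappaB was found in 7 of 12 promoters of NF-κB subunits and inhibitors, and the ISRE in 10 of 30 promoters of interferon-stimulated genes. In the mitosis list CCAAT was found in 23 of 28 promoters and CHR in 11, against 10.9 percent of tested promoters for CHR. CHR stood in 15.5 percent of promoters at least 8-fold higher after LPS and in 12.7 percent of those at least 8-fold lower. The cholesterol synthesis list had CCAAT in 16 of 20 promoters, and the mitosis list had kappaB in 4 of 28 (14.3 percent). Over all 32851 RefSeq promoters of the table the shares were 7.25 percent for kappaB, 7.13 percent for the ISRE, 16 percent for CHR and 33.8 percent for CCAAT. These are letter matches and were not tested.

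LPS and heme-albumin at 50 µM gave widely different profiles. Of the 12759 genes tested, 3912 (30.7 percent) differed with adjusted p under 0.05 and at least 2-fold, the rule used for every call here, from limma's moderated test with Benjamini-Hochberg adjustment over all genes. After LPS 1777 genes were higher (13.9 percent) and 2135 were lower (16.7 percent). Large differences lay mostly on the higher side: 394 genes were at least 8-fold higher and 177 at least 8-fold lower, and at 32-fold the counts were 94 and 12. The median difference over all genes was -0.10. The 4 LPS values lay entirely on 1 side of the 4 heme-albumin values for 3857 of the 3912 called genes, against 72.6 percent of all genes. Between LPS and the control 3924 genes differed (30.8 percent), and this comparison shares the LPS arrays with the one described.

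**Figure D1:**
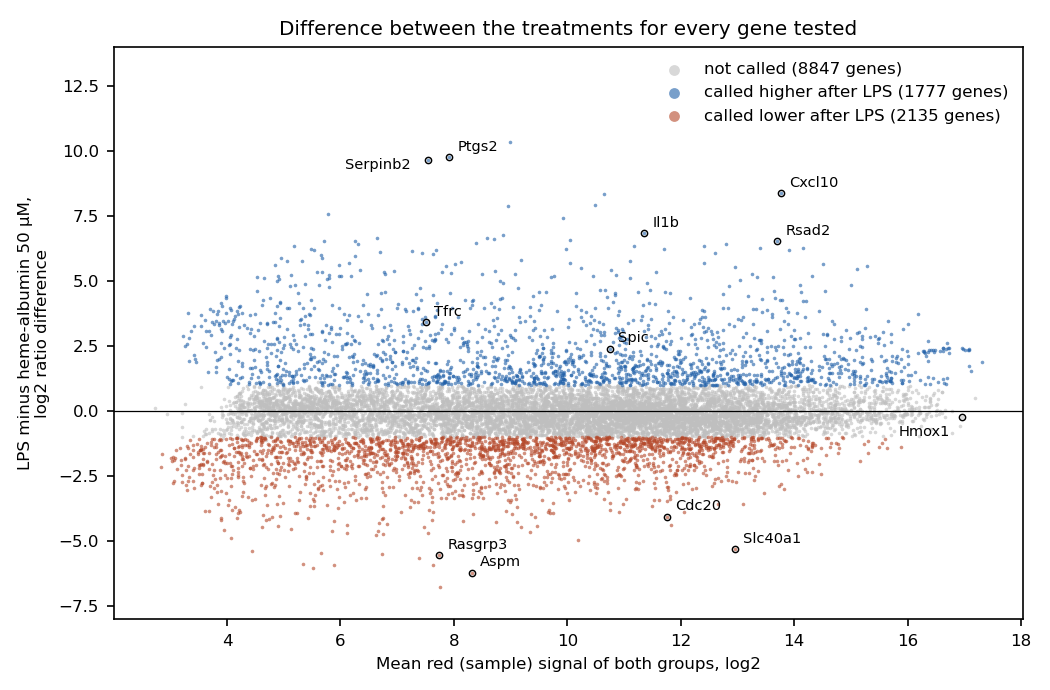
Each point is 1 of 12759 genes; the horizontal axis is the mean log2 red signal of the 8 arrays and the vertical axis the LPS minus heme-albumin difference of log2 ratios. Blue marks the 1777 genes called higher after LPS and brown the 2135 called lower; Ptgs2 and Cxcl10 stand near the top, Aspm and Slc40a1 near the bottom, and Hmox1 near 0.

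In what follows, rose and fell mean higher and lower after LPS than after heme-albumin by the call rule, and ± after a difference is the standard error of the fit over 4 arrays a group. Lists of per-array values run from replicate a to d. A gene below background on all arrays of a group has only a bound, given as "at least" and computed with the deposited background subtraction. It is not a minimum under other corrections. With normexp background correction the differences of several such genes, among them Flvcr2, Hamp and Pdcd1lg2, were smaller than the bound. The bound is computed in the red channel alone, so it is not a bound on the ratio and can exceed the fold of the ratio where the reference signal was higher on the LPS arrays; both are given there. Signals that also differed in the reference channel, which held untreated RNA on all arrays, are given beside the genes concerned. A list's counts are to be read against 13.9 percent of all genes called higher and 16.7 percent called lower.

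Cytokine genes were higher after LPS almost throughout. Of 20 tested, 19 rose, none fell, and the median difference was 3.97 (3.73 with bounds in place of fitted values); among the 15 that were above background on all 8 arrays, 14 rose. Il6, the interleukin of the acute phase response, had log2 ratios of 0.14, 0.39, 2.56 and 2.31 on the heme-albumin arrays and 11.63, 11.29, 12.34 and 11.46 on the LPS arrays. It rose by 10.33 ± 0.61 (adjusted p = 6.92e-10), though its signal was above background on only 2 of 4 heme-albumin arrays. The groups lay 8.73 apart at their nearest arrays, and the heme-albumin values themselves split into a pair near 0 and a pair above 2, in replicates c and d. Il1b, which encodes the inflammasome-processed cytokine interleukin 1 beta, was at 0.037, -0.043, 0.086 and -0.027 after heme-albumin and at 7.09, 6.90, 6.71 and 6.71 after LPS. The heme-albumin arrays thus stayed at the level of untreated cells, and Il1b rose by 6.84 ± 0.11, 115-fold (adjusted p = 6.42e-16). The reference signal of Il1b was itself 3.42 higher in log2 on the LPS arrays, and in the red channel alone the difference was 10.26.

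Tnf, an early cytokine with a wide range of target cells, was raised in both treatments. Its log2 ratios were 0.70, 0.94, 1.38 and 1.34 after heme-albumin and 4.08, 4.14, 4.23 and 4.25 after LPS. All 8 values were above 0.6 and the groups did not overlap. The difference was 3.09 ± 0.14 (adjusted p = 2.59e-11), or 5.70 in the red channel alone, and against the control Tnf had differences of 1.07 ± 0.14 after heme-albumin and 4.16 ± 0.14 after LPS, both called. The Tnf reference signal differed by 2.62. Ifnb1, interferon beta, rose by 6.55 ± 0.49 (2.99 with normexp background correction) and was above background on 1 of 4 heme-albumin arrays. Il10, which restrains macrophage activation, rose by 4.28 ± 0.23. Il1a was below background on all heme-albumin arrays and at least 1135-fold higher after LPS in red signal (12.24 in log2). By ratio the difference was 6.05, 66.4-fold, with a reference difference of 5.78. Tnfsf10, the death ligand TRAIL, rose by 6.58 ± 0.31. Vegfa, which promotes vessel growth, rose by 1.47 ± 0.13, and against the control it had -1.13 ± 0.13 after heme-albumin and 0.34 ± 0.13 after LPS. Tgfb1 alone in the list was not called, at 0.037 ± 0.074.

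By ratio, chemokine genes included the strongest measured responders. Of 20 tested, 17 rose and 2 fell, with a median of 4.88; of the 14 above background on all 8 arrays, 12 rose and 1 fell. Cxcl10, an attractant of activated T cells and a classical interferon target, was at 0.41, 0.42, 0.44 and 0.42 after heme-albumin and at 8.18, 8.69, 9.18 and 9.18 after LPS. By ratio, no other gene above background on all 8 arrays had a larger increase: Cxcl10 rose by 8.39 ± 0.21, 335-fold (adjusted p = 4.22e-14). Its reference signal was -2.23 on the LPS arrays relative to the heme-albumin arrays, and the red channel alone gave 6.16, less than the 10.26 of Il1b. Cxcl2, a neutrophil attractant whose promoter holds kappaB, was at 0.69, 0.82, 2.80 and 2.93 after heme-albumin and 7.62, 7.73, 9.14 and 9.15 after LPS. Both groups were higher in replicates c and d than in a and b, as were the controls (0.034, -0.26, 1.86 and 1.45), and the LPS values still lay 4.69 above all heme-albumin values. The monocyte attractants Ccl12 and Ccl2 rose, Ccl12 with 8.34 ± 0.46 and Ccl2 with 5.45 ± 0.46 (LPS replicate a left out). Cxcl1, another neutrophil attractant, rose by 6.46 ± 0.45, and Ccl5 rose by 4.57 ± 0.16 beside a reference difference of 1.96. Ccl17 and Ccl22, ligands of CCR4, rose too: Ccl17 had a ratio difference of 3.86 ± 0.13 (14.5-fold) and was at least 226-fold higher in red signal (8.33 in log2), with a reference difference of 4.47, and Ccl22 was at least 20.9-fold higher (fitted difference 5.20 ± 0.28, 2.10 with normexp background correction). The calls of Cxcl14 (-1.05) and Ccl24 (-1.03) as lower were both lost with normexp background correction and with each array centred on its median.

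Enzymes and effectors of inflammation all rose: 21 of 21 tested, median 3.51, including 17 of 17 above background on all 8 arrays. Ptgs2, the inducible cyclooxygenase of prostaglandin synthesis, was not above background on any heme-albumin array, with log2 ratios of 0.47, 0.00072, 0.35 and 0.00. After LPS they were 10.05, 9.94, 9.97 and 9.92, which spread over little more than 0.1. By ratio Ptgs2 differed by 9.76 ± 0.25, 869-fold (adjusted p = 5.8e-14; 7.03 with normexp background correction). In red signal it was at least 973-fold higher, and its reference signal differed by 1.30. Serpinb2, an inhibitor of plasminogen activators, was at least 638-fold higher in red signal, with a ratio difference of 9.65 ± 0.50. Nos2, the inducible nitric oxide synthase, stood at -0.040, -0.26, 0.082 and -0.26 after heme-albumin and 4.73, 4.84, 5.35 and 5.46 after LPS. Heme-albumin arrays were spread around 0 and LPS arrays all exceeded 4.7; Nos2 rose by 5.22 ± 0.17 (10.02 in the red channel alone), beside a reference difference of 4.80. Acod1, which makes itaconate, was raised in both groups, at 1.71, 1.48, 2.37 and 2.48 and 6.38, 6.20 and 6.31 (replicate a left out as an outlier spot). The groups did not overlap; Acod1 rose by 4.29 ± 0.19 (7.07 in the red channel alone), had 1.94 ± 0.18 after heme-albumin against the control (called), and showed a reference difference of 2.79. Arg1, arginase 1, rose by 4.46 ± 0.35, with 5.49 on the first scan day and 3.42 on the second. Mmp13, a collagenase, rose by 5.70 ± 0.088.

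Among NF-κB subunits and inhibitors 9 of 11 rose and none fell (median 2.31); Rela (0.65) and Nfkbid (0.51) were not called. Nfkbia encodes IκBα, the inhibitor that NF-κB itself induces. Its log2 ratios were 0.68, 0.67, 0.80 and 0.76 after heme-albumin and 3.38, 3.36, 3.94 and 3.82 after LPS. Heme-albumin values were close together and above 0, and every LPS value was at least 2.57 higher; Nfkbia rose by 2.90 ± 0.11 (adjusted p = 4.06e-12). Nfkbiz, which encodes the nuclear cofactor IκBζ, rose by 3.11 ± 0.32 (2.05 with normexp background correction), and Nfkbie rose by 2.68 ± 0.11. Of the A20, ubiquitin and TRAF feedback genes 12 of 17 rose and none fell (median 1.97), led by Tnfaip3, which encodes the deubiquitinase A20, with 4.83 ± 0.24. Traf1 rose by 4.35 ± 0.15, and Zc3h12a, the mRNA-degrading enzyme regnase 1, rose by 2.84 ± 0.13.

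TLR receptors and adaptors moved both ways. Of 17, 7 rose and 2 fell (median 0.65). Cd14, the LPS co-receptor, was at -0.43, -0.43, -0.62 and -0.61 after heme-albumin and 3.07, 2.21 and 1.99 (replicate a left out as an outlier spot) after LPS. Every LPS array was above every heme-albumin array by more than 2; Cd14 rose by 2.95 ± 0.20 (1.87 in the red channel alone), beside a reference difference of -1.08. Tlr3, the receptor for double-stranded RNA, rose by 3.12 ± 0.16, and Tlr1 rose by 2.74 ± 0.081. Tlr4, the LPS receptor, was not called (-0.75 ± 0.11). The genes called lower were Irak1 (-1.32) and Tlr13 (-1.02), and the call of Tlr13 was lost with each array centred on its median. Of AP-1 and immediate early genes 9 of 15 rose and none fell: Batf rose by 4.47 ± 0.065, Ier3 rose by 3.67 ± 0.076 and Maff rose by 2.42 ± 0.27, while Fos (0.72) and Jun (-0.40) were not called. Of the phosphatases of MAP kinases 4 of 10 rose and 1 fell, Dusp3 (-1.60). Dusp2 rose by 4.93 ± 0.23, Dusp1 rose by 2.60 ± 0.19, and Dusp5 rose by 3.03 ± 0.25 (1.17 with normexp background correction) from 3 of 4 heme-albumin arrays above background.

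Interferon-stimulated genes were raised as a block. Of 34 tested, all above background on all 8 arrays, 33 rose and none fell (median 3.07). Irf9 was the exception at 0.67 ± 0.059. Against the control the same list had a median of 2.64 after LPS and -0.47 after heme-albumin. Ifit1, which binds viral RNA and whose promoter holds 3 ISRE matches, had log2 ratios of -0.76, -1.06, -1.15 and -0.86 after heme-albumin and 5.05, 5.12, 5.78 and 5.54 after LPS. Heme-albumin arrays all lay below 0 and LPS arrays all exceeded 5; Ifit1 rose by 6.33 ± 0.17, 80.4-fold (adjusted p = 9.14e-14). Rsad2, the antiviral protein viperin, was at -0.60, -0.65, -0.92 and -0.60 and 5.94, 5.76, 5.82 and 5.83. Its LPS values spread over less than 0.2, and it rose by 6.53 ± 0.10 (adjusted p = 4.45e-16). Ifi44 rose by 6.21 ± 0.13, and Irf7, the factor that amplifies the interferon response, rose by 3.60 ± 0.086.

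All 13 tested guanylate-binding proteins and immunity-related GTPases, which attack the vacuoles of intracellular microbes, rose (median 4.59; 12 of 12 among those above background on all 8 arrays). Gbp5 was at -0.75, -0.56, -0.33 and -0.56 after heme-albumin and 7.09, 7.18, 7.58 and 7.69 after LPS. These groups lay 7.43 apart, and Gbp5 rose by 7.94 ± 0.17, 245-fold. Gbp4 rose by 6.76 ± 0.27 and Gbp3 rose by 6.25 ± 0.056. Among IRF, STAT, JAK and SOCS genes 9 of 19 rose and 1 fell (median 0.88). The feedback inhibitors Socs1 and Cish rose, Socs1 with 4.37 ± 0.10 (7.04 in the red channel alone) beside a reference difference of 2.67, and Cish with 3.96 ± 0.20. Jak2 rose by 3.52 ± 0.067. Irf4 was the gene called lower (-1.12), not above background on all LPS arrays, and its call was lost without LPS replicate d and with normexp background correction. Irf3, whose product acts downstream of TRIF, was not called (-0.41 ± 0.057).

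Antigen presentation by class I and costimulation rose in 16 of 19 genes (median 1.86), and Cd80 fell (-1.60), a call lost when the gene's probes were averaged, its other probe having 1.49. Cd40 rose by 4.56 ± 0.21 (7.44 in the red channel alone) and Cd274, the inhibitory ligand PD-L1, rose by 3.12 ± 0.11 (5.17 in the red channel alone), with reference differences of 2.89 and 2.05. Pdcd1lg2, PD-L2, was at least 5.06-fold higher (fitted difference 3.36 ± 0.49, 0.95 with normexp background correction), and had no call with that correction. Of class II genes 1 of 8 rose, H2-Ab1 (1.36 ± 0.17), which on the second scan day had 0.89. H2-Aa (0.84 ± 0.094) and Cd74 (0.71 ± 0.10) were not called. Inflammasome and cell death genes rose in 11 of 18 (median 1.68), among them Casp4, the intracellular LPS sensor, with 4.43 ± 0.16, and Mefv, pyrin, with 3.80 ± 0.19. Nlrp1b, another inflammasome sensor, fell by 3.34 ± 0.074. Glycolysis and hypoxia genes rose in 13 of 24 and fell in none (median 1.17). Pfkfb3, which makes the activator of phosphofructokinase, rose by 4.51 ± 0.13; Hilpda, a lipid droplet protein, rose by 3.38 ± 0.19; and Hif1a rose by 2.57 ± 0.077.

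**Figure D2:**
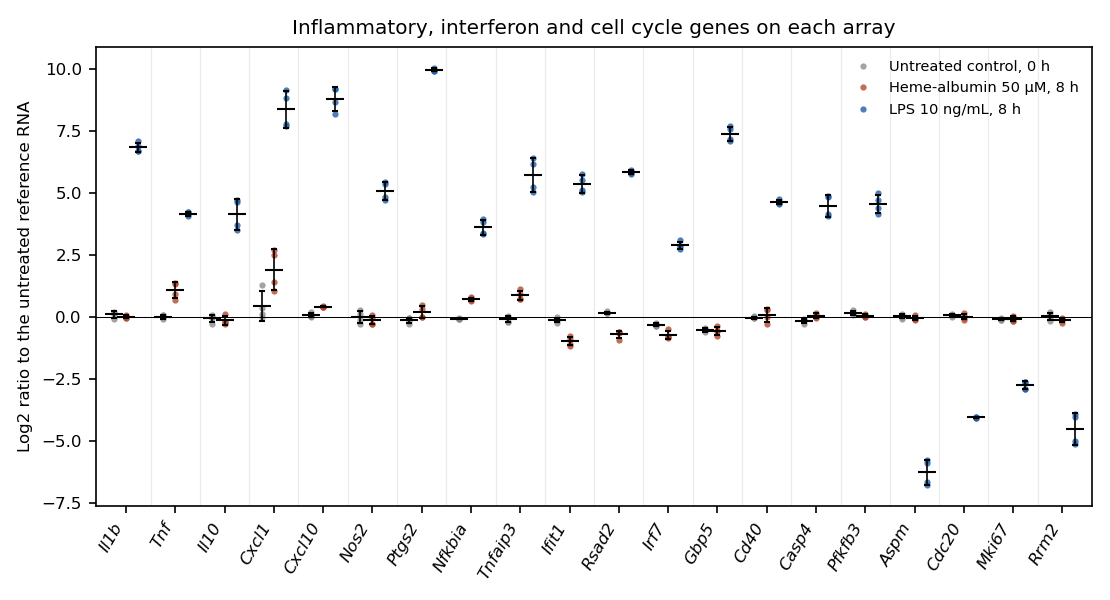
Log2 ratios over the untreated reference for genes of inflammation and of the cell cycle, 1 point per array for the control, heme-albumin at 50 µM and LPS, with the mean and SD of each group as bars. For Cxcl10 the LPS arrays sit between 8.18 and 9.18 and the heme-albumin arrays between 0.41 and 0.44, and for Cdc20 the LPS arrays sit near -4.03 with the heme-albumin arrays near 0.

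Mitosis genes had the lowest median of all lists. Of 30 mitosis and spindle genes, 29 fell and none rose (median -2.97, -2.85 with bounds). Among the 26 above background on all 8 arrays, 25 fell. Tpx2 was the exception (0.44 ± 0.23). The list's median against the control was -0.026 after heme-albumin and -3.00 after LPS. Cdc20, the activator of the anaphase-promoting complex, was at 0.062, 0.16, -0.10 and -0.016 after heme-albumin and -4.02, -4.05, -4.05 and -4.01 after LPS. The LPS arrays agreed within less than 0.1 and lay 3.90 below the heme-albumin arrays; Cdc20 fell by 4.06 ± 0.062, 16.6-fold (adjusted p = 4.45e-16). Aspm, a spindle pole protein, was at -0.037, -0.067, -0.12 and 0.086 and -6.74, -6.63, -5.75 and -5.87. LPS replicates a and b lay lower than c and d, and Aspm was above background on 3 of 4 LPS arrays; it fell by 6.22 ± 0.17. Aurkb, the aurora B kinase, was at least 5.58-fold lower (fitted difference -4.10 ± 0.33, -1.43 with normexp background correction), and Mki67, the proliferation marker Ki-67, fell by 2.69 ± 0.079. Fewer cells of a dividing type and less RNA per cell cannot be told apart in such bulk samples.

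Replication and licensing genes fell in 17 of 29 and rose in 1 (median -1.26). Rrm2, a subunit of ribonucleotide reductase, fell by 4.39 ± 0.22, and the cell cycle factor E2f2 fell by 3.28 ± 0.073. Tyms, thymidylate synthase, ran the other way, at -0.062, 0.092, 0.53 and 0.10 after heme-albumin and 3.20, 2.85, 2.75 and 2.98 after LPS. All 4 LPS values were above 2.7 while the heme-albumin values stayed within 0.6 of 0, and Tyms rose by 2.78 ± 0.12 (adjusted p = 1.59e-11). Mcm5, a helicase subunit, differed by -0.93 ± 0.11 (adjusted p = 2.14e-06), short of 2-fold. Of p53 targets 3 of 17 rose and 5 fell (median -0.12): the death receptor Fas rose by 3.15 ± 0.14, while Trp53inp1 fell by 3.01 ± 0.20 and Zmat3 fell by 2.82 ± 0.20.

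Stress gene lists had smaller medians. Heat shock genes rose in 7 of 17 (median 0.73), but in 3 on the second scan day alone; Hspa1a, the inducible HSP70, rose by 3.52 ± 0.086 (5.48 in the red channel alone) beside a reference difference of 1.97, and Dnaja1, its cochaperone, rose by 2.87 ± 0.074. Integrated stress response genes rose in 10 of 22 and none fell (median 0.86), with Nupr1 at 2.66 ± 0.19 and Cebpb at 2.53 ± 0.11 (LPS replicate a left out, reference difference -1.16, 1.37 in the red channel alone). Of endoplasmic reticulum chaperones 1 of 20 rose, Hspa5 (1.71 ± 0.10), which in the red channel alone had 0.90 and no call. Proteasome subunits rose in 6 of 30 (median 0.52), 3 of them in the red channel alone, with Psma6 at 1.99 ± 0.10. None of 30 respiratory chain subunits was called (median -0.15, range -0.59 to 0.53).

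The heme and iron genes separated the treatments in both directions, and some moved in both. Of iron genes 9 of 18 rose and 1 fell (median 0.81). Among the 16 above background on all 8 arrays 7 rose and 1 fell (median 0.54). Of heme breakdown, transport and recycling genes 2 of 15 rose and 5 fell (median -0.91). Among the 13 above background on all 8 arrays 1 rose and 4 fell. Slc40a1, ferroportin, the only known iron exporter, had log2 ratios of 3.29, 2.65, 3.06 and 3.23 after heme-albumin and -1.52, -1.76, -2.90 and -2.86 after LPS. The treatments lay on opposite sides of the untreated level in every replicate. Slc40a1 fell by 5.32 ± 0.28, 39.9-fold (adjusted p = 5.15e-10), with 2.96 ± 0.28 after heme-albumin and -2.36 ± 0.28 after LPS against the control, both called. Its difference was -4.61 on the first scan day and -6.02 on the second. Tfrc, the transferrin receptor for iron uptake, was at -3.37, -3.09, -3.32 and -3.34 after heme-albumin and -0.056, 0.26, 0.31 and 0.090 after LPS. Only the heme-albumin arrays left the untreated level: Tfrc was 3.43 ± 0.10 higher after LPS than after heme-albumin (adjusted p = 3.14e-13), and against the control it had -3.32 ± 0.10 after heme-albumin (called lower) and 0.11 ± 0.10 after LPS (not called).

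Hmox1, heme oxygenase 1, was raised in both groups and did not separate them. Its log2 ratios were 2.51, 2.89 and 3.06 (replicate a left out as an outlier spot) after heme-albumin and 3.06, 2.22 and 2.48 (replicate a left out as an outlier spot) after LPS. The 2 sets of values overlapped, and the difference was -0.23 ± 0.20 (adjusted p = 0.29, 95 percent interval -0.66 to 0.19). It was 0.55 on the first scan day and -0.63 on the second, a change of sign. Against the control Hmox1 had 2.88 ± 0.18 after heme-albumin and 2.65 ± 0.18 after LPS, both called. Its mean log2 red signal was 17.09 after heme-albumin and 16.81 after LPS. Hmox1 thus belongs to the 119 genes with a signal above 16, of which 111 had LPS replicate a left out. A band of 26 such genes is described under other observations, and its bearing on Hmox1 was not tested. Spic, whose product drives the red pulp macrophage program of iron recycling, was likewise raised in both, at 3.20, 2.89, 2.95 and 3.71 and 5.90, 6.09, 5.04 and 5.34. Here the LPS arrays were all higher; Spic rose by 2.40 ± 0.21, 5.29-fold (adjusted p = 5.87e-08), against 3.26 ± 0.21 after heme-albumin and 5.66 ± 0.21 after LPS relative to the control. Slco2b1, an organic anion transporter, was at -1.25, -0.94, -0.91 and -0.67 and -5.37, -5.54, -5.12 and -4.90. Both treatments lay below 0 in every replicate and LPS lay lower; Slco2b1 fell by 4.29 ± 0.14 (-2.67 with normexp background correction), with 3 of 4 LPS arrays above background. Flvcr2, a transporter of the heme exporter family, was at least 6.17-fold higher (fitted difference 4.03 ± 0.20, 1.15 with normexp background correction) from a signal above background on 0 of 4 heme-albumin arrays.

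Ferritin heavy chain, Fth1, was at 0.54, 0.45 and 0.62 (replicate a left out as an outlier spot) after heme-albumin and 1.05, 0.92 and 1.04 (replicate a left out as an outlier spot) after LPS. The groups did not overlap, and the difference was 0.47 ± 0.078 (adjusted p = 0.000169), short of 2-fold. Cp, the ferroxidase ceruloplasmin, rose by 3.96 ± 0.42 (7.79 in the red channel alone) beside a reference difference of 3.84, and Hamp, the ferroportin-binding hormone hepcidin, was at least 6.74-fold higher (fitted difference 3.46 ± 0.14, 1.11 with normexp background correction) with 0 of 4 heme-albumin arrays above background. In heme biosynthesis 1 of 11 genes rose and 4 fell (median -0.82). Alas1, the rate-limiting first enzyme, which heme is known to repress, was at -0.73, -0.86, -0.83 and -0.82 after heme-albumin and 3.15, 2.28 and 2.53 (replicate a left out as an outlier spot) after LPS. The treatments lay on opposite sides of 0; Alas1 rose by 3.47 ± 0.14 (adjusted p = 3.07e-11), with -0.78 ± 0.13 after heme-albumin against the control (not called, short of 2-fold) and 2.69 ± 0.14 after LPS (called). The later enzymes Fech (-1.17 ± 0.062) and Urod (-1.16 ± 0.062) fell; with normexp background correction they had -0.94 and -0.94, and none of the 4 calls remained.

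**Figure D3:**
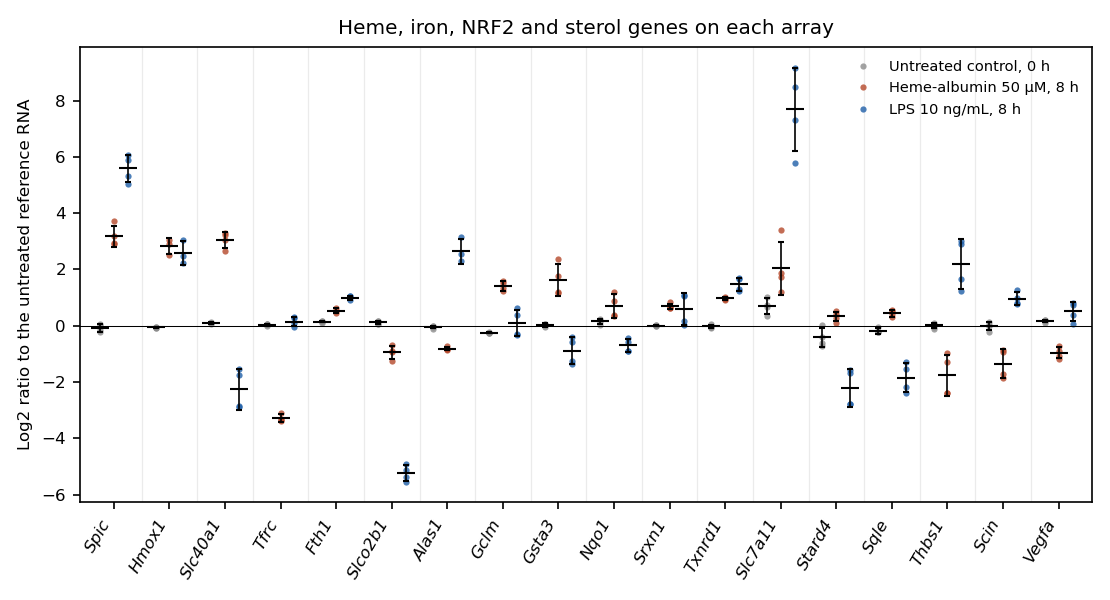
Log2 ratios over the untreated reference for heme, iron and antioxidant genes, 1 point per array for the control, heme-albumin at 50 µM and LPS, with the mean and SD of each group as bars. Hmox1 and Spic are above 2 in both treatments, Slc40a1 is above 2.6 after heme-albumin and below -1.5 after LPS, and Tfrc is below -3 only after heme-albumin.

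Targets of NRF2, the factor of the oxidant response, fell in 10 of 32 and rose in 4 (median -0.34). Against the control the list's median was 0.57 after heme-albumin and 0.29 after LPS. Gclm, the regulatory subunit of glutathione synthesis, was at 1.59, 1.23, 1.34 and 1.53 after heme-albumin and 0.62, 0.37, -0.32 and -0.28 after LPS. Every heme-albumin array was higher, and LPS replicates a and b were above 0 with c and d below it. Gclm fell by 1.32 ± 0.18 (adjusted p = 1.08e-05), with -0.91 and no call on the first scan day. Nqo1, a quinone reductase, fell by 1.40 ± 0.21, and Gsta3, a glutathione transferase, fell by 2.52 ± 0.32. Idh1, an NADPH-producing dehydrogenase, fell by 2.20 ± 0.14. Slc7a11, the cystine transporter, ran against the list, at 1.18, 3.39, 1.88 and 1.74 after heme-albumin and 9.16, 8.50, 5.79 and 7.31 after LPS. LPS values were the more scattered and all lay above the heme-albumin values; Slc7a11 rose by 5.64 ± 0.61 (adjusted p = 6.92e-07). Txnrd1 (0.50 ± 0.11) and Srxn1 (-0.11 ± 0.19) were not called, and the sign of Srxn1 turned to 0.32 on the first scan day.

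Cholesterol synthesis genes fell in 9 of 24 and rose in none (median -0.76; 5 fell with normexp background correction). Sqle, squalene epoxidase, was at 0.30, 0.40, 0.52 and 0.55 after heme-albumin and -1.52, -1.28, -2.18 and -2.38 after LPS. These values lay on opposite sides of 0 in every replicate; Sqle fell by 2.28 ± 0.20 (adjusted p = 7.85e-08), with 0.62 ± 0.20 after heme-albumin against the control (not called) and -1.66 ± 0.20 after LPS (called). Stard4, a sterol carrier, fell by 2.53 ± 0.28. Hmgcs1 was not called (-0.44 ± 0.11). Of LXR targets and efflux genes 2 of 13 rose and 4 fell, or 2 and 3 of the 11 above background on all 8 arrays. Apoe, a lipid carrier of macrophages, fell by 1.79 ± 0.13, Apoc1 fell by 1.79 ± 0.20 (-1.02 with normexp background correction), and Scd2, a fatty acid desaturase, fell by 2.28 ± 0.57 with -0.75 on the first scan day and -3.82 on the second. Abca1, the cholesterol efflux pump, rose by 1.10 ± 0.19; it had 0.94 without LPS replicate a and 0.96 without LPS replicate b, neither called.

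Surface receptors were divided. Of purinergic and other G protein-coupled receptors 12 of 24 rose and 6 fell (median 1.05), or 10 and 5 of the 21 above background on all 8 arrays. Adora2b, an adenosine receptor, rose by 5.41 ± 0.15, and Gpr84, a receptor for medium-chain fatty acids, rose by 5.25 ± 0.18. Gpr34, a lysophosphatidylserine receptor, was at -0.39, -0.46, -0.27 and -0.29 after heme-albumin and -7.34, -7.44, -5.07 and -5.20 after LPS. All LPS values were below -5, those of replicates a and b lowest, with 1 of 4 above background; Gpr34 fell by 5.91 ± 0.44 (-3.13 with normexp background correction). Of Fc receptors and complement genes 7 of 17 rose and 1 fell. C3 rose by 4.84 ± 0.054 and Fcgr2b, the inhibitory Fc receptor, rose by 3.91 ± 0.10; Cfb rose by 4.17 ± 0.16 (8.18 in the red channel alone) beside a reference difference of 4.00. Of scavenger and apoptotic cell receptors 4 of 15 rose and 4 fell (median -0.52), or 3 and 3 of the 13 above background on all 8 arrays. Olr1, a receptor for oxidised lipoprotein, was at least 21.7-fold higher (fitted difference 5.24 ± 0.54, 2.40 with normexp background correction), Marco rose by 3.51 ± 0.29 and Colec12 fell by 2.22 ± 0.22.

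Genes of macrophage identity were called in both directions, 5 of 22 higher and 4 lower (median -0.11). Cebpa, a factor of myeloid differentiation, was at -0.072, -0.14, -0.34 and -0.41 after heme-albumin and -3.04, -3.19, -3.56 and -3.60 after LPS. The LPS arrays were all below -3, and Cebpa fell by 3.11 ± 0.15 (adjusted p = 6.94e-11). Fcgr1, the high-affinity IgG receptor, rose by 3.83 ± 0.060. Csf1r, the receptor for macrophage colony-stimulating factor, differed by -0.76 ± 0.088 (adjusted p = 7e-06, replicate a left out in both groups), short of 2-fold. Alternative activation genes rose in 6 of 17 and fell in 6 (median 0.36), Arg1, Ccl22 and Ccl17 among the higher, as above. Of the 11 above background on all 8 arrays 3 rose and 3 fell, and over the whole list the lower count was 3 with normexp background correction. Lysosome and autophagy genes fell in 6 of 28 and rose in none (median -0.37), with the lysosomal lipase Lipa at -1.91 ± 0.16, Atp6v0d2 at -1.75 ± 0.12 and the autophagy kinase Ulk1 at -1.45 ± 0.12. Of 14 housekeeping genes 3 rose (median 0.083), among them Actb (1.88) and B2m (1.21). In the red channel alone these gave 0.67 and 0.90, neither called, and the reference signal of Actb differed by -1.21.

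**Figure D4:**
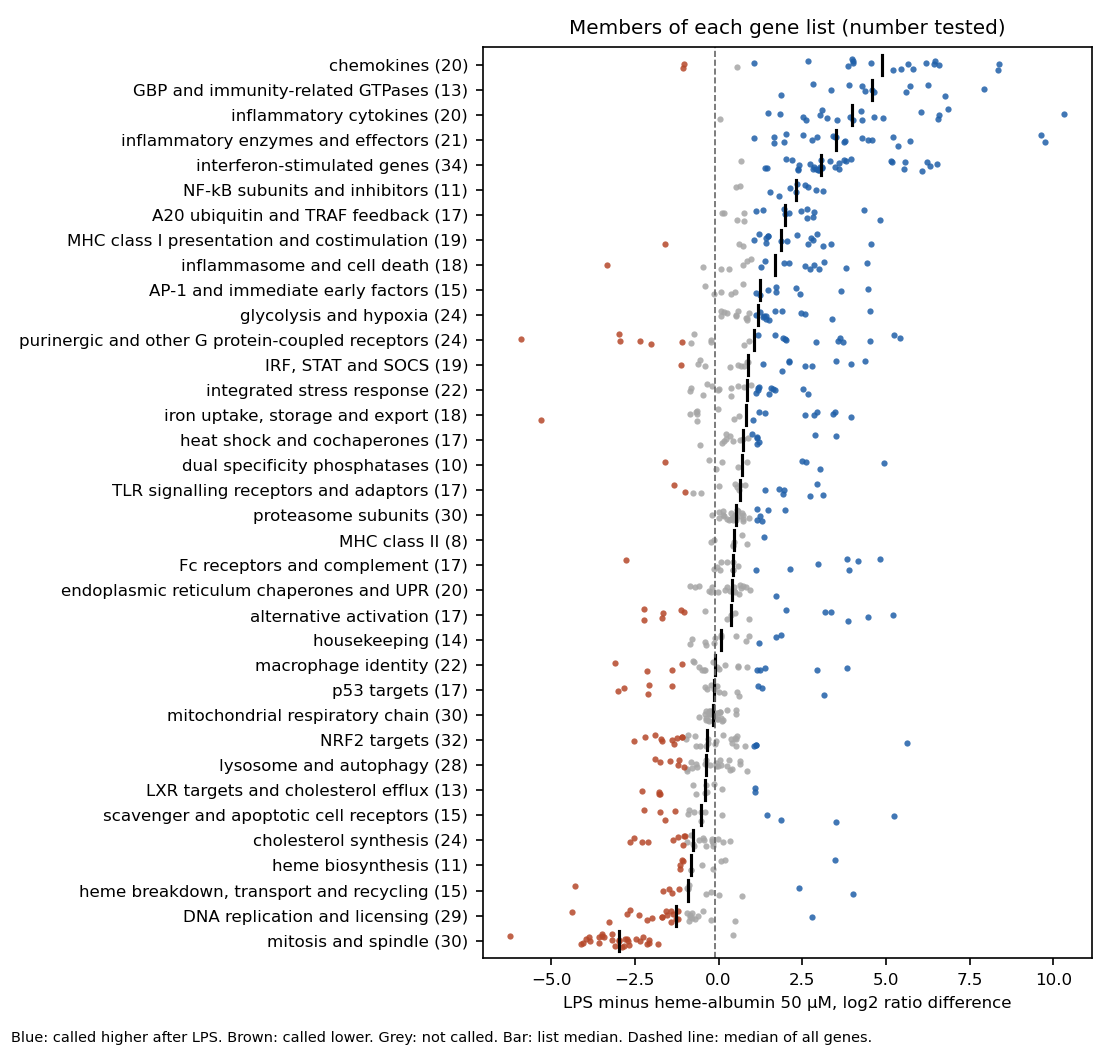
Each point is the LPS minus heme-albumin difference of 1 gene, by gene list in order of the list median (black bar), with the number tested in brackets; blue and brown mark genes called higher and lower after LPS, grey genes not called, and the dashed line the median of all genes. Chemokines lie at the top with a median of 4.88 and mitosis genes at the bottom with -2.97.

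Among all genes above background on all 8 arrays, the 10 largest increases by ratio were, in falling order, Cxcl10, Ccl12, Gbp5, Slfn4, Cd69, Il1b, Gbp4, Ifi214, Cxcl2 and Tnfsf10. This order is that of the ratio: the red channel alone gave 10.26 for Il1b, 10.02 for Nos2, 9.07 for Ccl12 and 6.16 for Cxcl10. Slfn4, of the Schlafen family, rose by 7.89 ± 0.15; Cd69, an early activation antigen of leukocytes, rose by 7.42 ± 0.21; and Ifi214, of the interferon-inducible p200 family, rose by 6.64 ± 0.26. The 10 largest decreases were, from the largest, Rasgrp3, Slc40a1, Bmf, Abhd15, Sort1, Nanos1, St6gal1, Angptl4, Rrm2 and Frat1. Rasgrp3, an exchange factor for Ras proteins, fell by 5.54 ± 0.14; Sort1, the sorting receptor sortilin, fell by 4.66 ± 0.11; and Bmf, a pro-apoptotic BH3-only protein, fell by 4.95 ± 0.13. St6gal1, a sialyltransferase, fell by 4.45 ± 0.11 by its brighter probe, but its second probe gave -0.91 and was not called. Other genes described here also had a probe that differed from the brightest by over 1.5 times, called in the same direction: it gave -1.83 for Sort1, -2.24 for Abhd15, -1.18 for Stard4, -1.49 for Nlrp1b, -1.46 for Trp53inp1, 2.22 for Tfrc and 2.70 for Vegfa. Angptl4, an inhibitor of lipoprotein lipase, fell by 4.43 ± 0.072. Where heme-albumin arrays were below background, the largest bounds after LPS in red signal were at least 1135-fold for Il1a, 973-fold for Ptgs2, 638-fold for Serpinb2, 301-fold for Il1f6, 226-fold for Ccl17 and 142-fold for Edn1. Their ratio differences were 6.05, 9.76, 9.65, 6.13, 3.86 and 6.43 in log2, so their order by ratio was another. Where LPS arrays were below background, heme-albumin was at least 25.6-fold higher for Esco2, a cohesin acetyltransferase, 24.1-fold for Depdc1a and 22.8-fold for Skint3. The bounds in red signal were 12.2-fold for Lrrc17, 10.3-fold for Etl4 and 10.0-fold for Knl1, a kinetochore protein. With normexp background correction the differences of these genes ran from -2.79 for Esco2 to -1.64 for Etl4 in log2. Each was smaller in size than its bound.

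The 47 genes called between heme-albumin at 8 h and the control at 0 h were spread over all outcomes of the comparison with LPS. Of the 37 raised, 8 were higher still after LPS, 16 were lower after LPS and 13 were not called; of the 10 lowered, 9 were higher after LPS and 1 was lower. Over all genes tested 13.9 percent were called higher after LPS and 16.7 percent lower. The control entered the choice of these 47, and the heme-albumin arrays enter both comparisons with opposite sign. Genes picked as low after heme-albumin thus lean towards higher after LPS, and those picked as high towards lower. The counts are therefore a description. Plpp3, a lipid phosphatase, had 1.89 ± 0.19 after heme-albumin and 3.06 ± 0.19 after LPS against the control. Thbs1, the matrix protein thrombospondin 1, had -1.77 ± 0.44 and 2.19 ± 0.44, and rose by 3.97 ± 0.44 between the treatments. Scin, an actin-severing protein, had -1.33 ± 0.23 and 0.98 ± 0.23, and Nr4a1, an orphan nuclear receptor of early responses, had -1.31 ± 0.29 and 0.47 ± 0.29. Of the genes without a symbol, 4771 probes were tested and 495 were higher and 538 lower after LPS (21.7 percent); over all probes 6015 were called (28 percent).

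Markers of other cell types ranged from below background to bright, and levels are given as the log2 of the summed red signal of each list, by array. Such a sum is weighted towards the brightest members of its list. Macrophage identity genes summed to 18.37 to 19.37 after heme-albumin and 18.32 to 19.50 after LPS. Neutrophil markers summed to 12.90 to 13.15 after heme-albumin and 12.36 to 13.20 after LPS; of 5 tested, 3 rose, among them Camp (2.64) and S100a8 (1.51), and 1 fell, Mmp8 (-1.15), with Retnlg above background on no array. Dendritic cell markers summed to 11.96 to 14.22 after heme-albumin and 13.38 to 14.12 after LPS; 3 of 6 rose, Ccr7, a homing receptor that LPS is known to induce in dendritic cells, by 6.06, Fscn1 by 3.00 (1.49 with normexp) and Zbtb46 by 1.35 (0.97 without LPS replicate b and 0.59 with normexp, neither called), and of the 4 above background on all 8 arrays 1 rose, while Xcr1 and Cd209a were above background on no array. Lymphocyte markers summed to 10.75 to 11.49 after heme-albumin and 11.10 to 11.73 after LPS, with 3 tested, none called, and Cd79a, Ms4a1, Cd8a and Cd3g above background on no array. Mast cell and basophil markers summed to 5.98 to 6.27 after heme-albumin and 6.32 to 6.86 after LPS, without overlap. Among all single genes tested, 72.6 percent were likewise without overlap. Tpsb2 was not called (0.040 ± 0.15). Of the 8 markers on the array, 6 were above background on no array: Kit, Cpa3, Fcer1a, Mcpt1, Mcpt4 and Cma1. Erythroid and megakaryocyte markers summed to 14.82 to 15.11 after heme-albumin and 15.23 to 16.16 after LPS, again without overlap; none of 3 was called, and Klf1, Gata1, Itga2b and Gp9 were above background on no array. Their part in the results was not tested.

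Fibroblast and stromal markers summed to 8.29 to 8.95 after heme-albumin and 9.71 to 10.20 after LPS, without overlap, as for 72.6 percent of all single genes. Of 5 tested 3 rose, Dcn (at least 13.3-fold, fitted difference 5.14 ± 0.34), Fap (3.69 ± 0.26) and Pdgfrb (3.47 ± 0.39), which with normexp background correction had 1.77, 2.17 and 1.62, while Col1a2 (-0.15) and Acta2 (-0.67) were not called and Pdgfra and Thy1 were above background on no array. Endothelial markers summed to 12.46 to 12.93 after heme-albumin and 12.39 to 12.69 after LPS; 3 of 6 rose, among them Eng (1.47) and Cdh5 (2.06, 0.99 and not called with normexp background correction), and 2 fell, with Tek and Tie1 above background on no array. Embryonic stem cell markers summed to 12.79 to 13.50 after heme-albumin and 11.45 to 11.90 after LPS, also without overlap. Klf2, which macrophages express as well, fell by 1.80 ± 0.086 and Dppa3 fell by 1.08 ± 0.076, while Pou5f1, Sox2 and Zfp42, which define pluripotent cells, were above background on no array. The part of these markers in the results was not tested.

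The reference channel carried untreated RNA on every array, so a gene's green signal was tested for a difference between the LPS and the heme-albumin arrays in the same way. It passed the call rule for 119 genes (0.933 percent), 80 higher and 39 lower on the LPS arrays. Of these 119 genes 106 were called higher after LPS by ratio, none was called lower and 13 were not called. With these genes left out, 1671 genes were higher and 2135 lower by ratio. Between the heme-albumin arrays and the control arrays no gene differed in the reference channel by that rule, and between the LPS arrays and the control arrays 105 did. Why the reference signals differed was not tested. The ratio and the red channel alone gave the same direction for 174 of the 175 genes chosen for description, the exception being the lymphocyte marker Cd3e, which neither called.

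**Figure D5:**
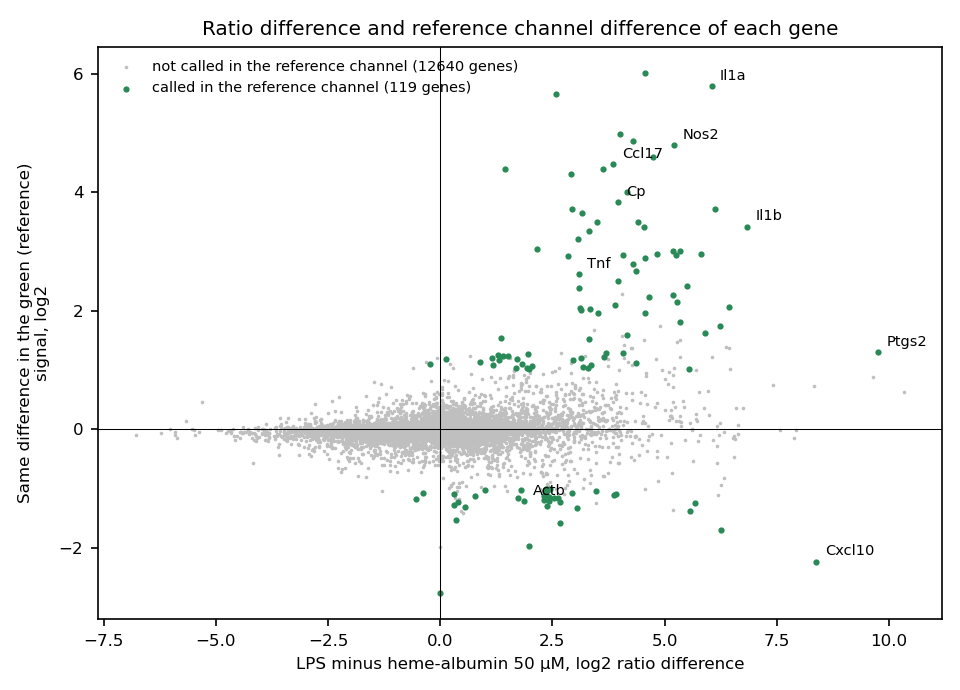
Each point is 1 gene tested; the horizontal axis is the LPS minus heme-albumin difference of log2 ratios and the vertical axis the same difference in log2 green (reference) signal. Green points are the 119 genes called in the reference channel. Il1a is at 5.78 and Nos2 at 4.80 on the vertical axis, and Cxcl10 at -2.23.

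Replicates a and b were scanned on 1 day and c and d on another, and each day held all groups. The LPS minus heme-albumin difference itself differed between the days for 502 genes (3.93 percent) by the same rule. Within the first day 1670 genes were higher and 1970 lower, and within the second 1905 and 2380. Gpr34 had -6.97 on the first day and -4.85 on the second, Il6 had 11.19 and 9.47, and Spic had 2.95 and 1.86. In the sample titles each letter also went with its own tag, the same in every group. Letter, slide and tag therefore cannot be told apart, and the tags differed between the days. Whether the scan, the cultures or another feature shared by the replicates of a day differed was not tested.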

How the data were processed

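RNA of 16 mouse macrophage cultures was hybridised to two-colour Agilent 4x44K arrays. Per the file headers, the deposited log10 ratios and the intensity columns were made with Feature Extraction 10.7.3.1 (mm9 design, background subtraction, dye normalisation by linear-lowess per the labels), and the authors normalised no further, per the labels. Deposited log10 ratios were multiplied by log2(10) to log2; control and outlier spots (188 to 690 an array) were left out, spots of a probe averaged, and dim probes dropped unless every array of at least 1 group had them well above background in red. A gene took its brightest probe. limma 3.58.1 (R 4.3.3) fitted group means over all 16 arrays with no block, and p-values were Benjamini-Hochberg adjusted; the script was tested on simulated data. Calls needed adjusted p under 0.05 and a 2-fold change. The number of arrays limits the precision.

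Replicates with the same letter deviated together (r from 0.165 to 0.261 between LPS and heme-albumin arrays; each correlated best with its own letter), and shared a slide, so a fit with the letter as a block was an alternative. Others were scan day, background correction, centring, red channel alone, filters, probe averaging and leaving out each array. Heme-albumin and LPS arrays marked for evaluation by the scanner's quality report were heme-albumin replicate d and LPS replicates a and d. Genes named were a chosen set, the 10 largest changes each way measured on both sides, the 6 largest bounds each way, the 5 largest heme-albumin changes each way against the control, and up to 3 of each of 44 lists; other members named are exceptions to a list's direction or genes of known pathway roles, chosen after their values were seen. Members and lists were chosen with earlier results of these data known. Promoters came from RefSeq on GRCm38.p6 (10250 of 12759 genes matched). Hmox1, Slc40a1 and Nos2 had no promoter to show. Coordinates of the array design (mm9) were not used. Il12b was not found by name and is not analysed here. Some members of the lists are counted but not reported here by name.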

Additional observations from a re-analysis of the deposited data

Results flagged for a closer look

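For 12 of the genes named, 1 array of a group stood far from the other 3 in its log2 ratio. Chance flags about 1 in 20 groups. With 175 genes chosen for description and 2 groups each, 12 flags do not exceed that rate. After heme-albumin these were Rsad2 in replicate c (lowest, -0.92), Idh1 in replicate a (highest, 0.36), Nupr1 in replicate a (lowest, 0.10), Ccl22 in replicate b (lowest, -0.97) and Cd4 in replicate c (lowest, -0.17). After LPS they were Ccl17 in replicate c (lowest, 4.20), Batf in replicate a (highest, 4.75), Apoc1 in replicate d (lowest, -2.63), Slc1a4 in replicate d (highest, 2.32), Olr1 in replicate a (lowest, 4.64), Cfb in replicate a (highest, 4.44) and Hba-a1 in replicate b (highest, 0.85).

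For 28 of the genes named, the LPS minus heme-albumin difference itself differed between the scan days by adjusted p under 0.05 and at least 2-fold. Over all 12759 genes tested this held for 502 (3.93 percent). The genes chosen for description numbered 175, many picked by the size of their difference. The second day minus the first was positive for Il10 (1.29), Ifi214 (1.23), Tnfsf10 (1.58), Rrm2 (1.03), Esco2 (1.66), Nr4a1 (1.20), Nfkbiz (1.65), Aurkb (1.31), Colec12 (1.21) and Gpr34 (2.11). It was negative for Il6 (-1.72), Ccl2 (-1.48), Arg1 (-2.06), Spic (-1.09), Hmox1 (-1.18), Slc40a1 (-1.41), Ccl12 (-1.30), Maff (-1.35), Pdcd1lg2 (-1.82), Stard4 (-1.45), Sqle (-1.06), Scd2 (-3.07), Zmat3 (-1.02), Marco (-1.37), Camp (-1.53), Zbtb46 (-1.60), Pf4 (-1.17) and Pdgfrb (-1.80). Scd2 and Gpr34 had the widest gaps downward and upward, and each day held 2 replicates a group.

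The untreated reference RNA in the green channel differed between the LPS and the heme-albumin arrays for 119 genes, a signal outside the main measurement. Of the genes named, it was higher on the LPS arrays, in log2 units, for Il1b (3.42), Il1a (5.78), Tnf (2.62), Ccl5 (1.96), Nos2 (4.80), Ptgs2 (1.30), Acod1 (2.79), Hspa1a (1.97), Il1f6 (3.72), Ccl17 (4.47), Edn1 (2.06), Socs1 (2.67), Cd40 (2.89), Cd274 (2.05), Cp (3.84), Slc1a4 (1.04) and Cfb (4.00). It was lower for Cxcl10 (-2.23), Actb (-1.21), Cd14 (-1.08) and Cebpb (-1.16). The cause was not tested.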

How the results depend on the processing

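The count of 3912 called genes was replaced by 10105 (4397 higher, 5708 lower) with adjusted p alone, that is, without the 2-fold limit; for LPS against the control this gave 10058 (4399 and 5659), and for heme-albumin against the control 449 (264 and 185). With normexp background correction 1513 genes were higher and 1345 lower, and without background subtraction 1521 and 1420; LPS against the control then had 1387 and 1409 lower. Heme-albumin against the control went from 47 to 19 genes (15 higher, 4 lower) with normexp, to 29 (24 and 5) without background subtraction, and its 10 lower genes became 4 in the red channel alone, 4 with only genes above background on all 16 arrays and 16 with only the arrays compared. Normexp also brought the scan day count to 296, and normexp on median signals, chosen after seeing the data, brought the reference channel count to 63. Leaving out each array in turn gave 3755 to 4040 called genes (1714 to 1825 higher, 2041 to 2229 lower), 3797 to 4056 for LPS against the control (1742 to 1845, 2055 to 2213) and 38 to 45 for heme-albumin against the control (31 to 38, 5 to 8). The replicate letters as a block, which pair the samples, gave 1780 higher and 2140 lower genes and changed no call of a gene named. Arrays centred on their median gave 1905 higher and 1925 lower. Signs turned for Hmox1 on the first scan day (0.554), for Srxn1 on that day (0.325) and without LPS replicate c (0.0331) or d (0.0801; range over arrays left out -0.281 to 0.0801), for Cd3e in the red channel alone (0.151), and for Tpsb2 on the first scan day (-0.0108), with normexp (-0.0179), without background subtraction (-0.00922) and without LPS replicate b (-0.0335) or d (-0.00614; range -0.0335 to 0.142), none of which was called; the fibroblast list median turned to -0.675 with only genes above background on all 16 arrays. Of 153 called genes named, 132 kept their direction and call in every setting but adjusted p alone; 28 of the 153 had a difference more than 1.5 times smaller with normexp than without it. The cause of these changes was not tested.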

Other observations

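A narrow band of bright probes was chosen after its values were seen. Of 119 genes with a mean log2 red signal above 16, 111 had the spot of LPS replicate a left out as an outlier, so their values rest on 3 LPS arrays. Of the same genes, 26 had a difference between 2.12 and 2.44, among them Arl6ip6, Cep170b, Pak4 and Madd. For all 26 the spot of LPS replicate a was left out. Their reference signal was lower on the LPS arrays, with differences from -1.29 to -0.26 in log2, and 12 of the 26 were called in the reference channel.

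Among 3304 genes with several tested probes, 7 had probes called in opposite directions and 586 had both called and uncalled probes; the values given are those of the brightest probe.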
